A study of Mus musculus with 34 samples.

Results

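Cholesterol synthesis and its feedback control were followed through 7 mouse liver genes, *Hmgcs1*, *Sqle*, *Lss*, *Idi1*, *Insig1*, *Insig2* and *Srebf2*, listed for their place in the pathway. None of the 7 encodes a lipoprotein receptor, so nothing here speaks to LDL uptake itself. For each gene, the peaks of HDAC3, PROX1 and HNF4α centred from 50 kb upstream of the transcription start site (TSS) to 2 kb past the gene end were collected, and this span is called the gene's window. Of the 7 genes, 6 lie on an assembled mm9 chromosome, among 22350 protein-coding genes examined in the same way. Their windows held 25 of the 28631 HDAC3 and PROX1 peaks and 18 of the 24253 HNF4α peaks. *Hmgcs1* could not be assessed. The annotation used here has no gene model for it, the 300 bp around its RefSeq start were found in mm9 on 2 unplaced scaffolds, and the peak lists hold peaks on assembled chromosomes.

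Binding was measured by ChIP-seq, which sequences the DNA that an antibody against a factor recovers from fixed chromatin. All livers came from male C57B/6 mice that were 10 weeks old and were collected at zeitgeber time 10, that is, 10 h after lights on. The HDAC3 and PROX1 lists stand for 3 libraries each from livers labelled Control, whose genotype is given no further, and the HNF4α list for 2 libraries labelled HNF4A_floxed. The study describes the latter as *Hnf4α* fl/fl livers that received the AAV8 TBG *Egfp* control virus, in which a hepatocyte promoter drives the reporter, so the HNF4α map comes from other mice than the other maps. Replicates were pooled before peaks were called and the depth is unknown, so every count below has no spread between livers and no test. A peak is called co-bound where the HDAC3 and PROX1 lists hold identical coordinates, PROX1-only or HDAC3-only where 1 list holds it, and with HNF4α where 1 HNF4α peak covers at least 50% of it. The authors set a signal cutoff for each list, lower for HDAC3 than for PROX1. Their own overlap rule asked for 50% overlap and a minimum signal of the other factor. Identical coordinates thus need not be 2 separate calls, and PROX1-only or HDAC3-only does not mean that the other factor was absent.

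Hepatocytes make cholesterol from acetyl-CoA through the mevalonate pathway and stop making it when their membranes hold enough. *Hmgcs1* encodes the synthase that makes HMG-CoA, *Idi1* the isomerase of the isoprenoid building blocks, *Sqle* the enzyme that oxidises squalene and *Lss* the cyclase that closes the rings to give lanosterol. *Srebf2* encodes SREBP-2, the transcription factor that switches these enzymes on when sterols are low, and *Insig1* and *Insig2* encode membrane proteins that hold SREBP and its escort in the endoplasmic reticulum when sterols are high. HDAC3 is the histone deacetylase of the NCoR corepressor complex, PROX1 is a homeodomain factor, and HNF4α is a nuclear receptor that marks the hepatocyte.

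The sequences of 6 regions that the results turn on are given first, all on the plus strand of the chromosome. Capitals mark exact matches, on either strand, to the letters searched: CAAAGTCCA and CAAAGGTCA for HNF4, TCACNCCAC for the sterol element that SREBP binds, TTGCNNAA for C/EBP, TAGGTCA for ROR and REV-ERB, and CCAAT for NF-Y. None of these strings contains another. The *Insig2* peak, chr1:123229173-123229372 in mm9, is shown as the co-bound peak at a TSS. The *Insig1* peak, chr5:28382165-28382364, and the *Srebf2* peak, chr15:82014174-82014373, are the co-bound peaks with the highest HNF4α score of their gene. CAAAGGTCA was added to the search after the *Srebf2* peak had been read. The *Sqle* peak, chr15:59110471-59110670, is the one co-bound peak of the placed enzyme genes. The *Lss* region, chr10:75993868-75994027, is an HNF4α peak at an enzyme promoter. For *Hmgcs1*, the 250 bp upstream of the RefSeq start, chr13:119690101-119690350 in GRCm38.p6, stand in for a peak that could not be looked for.
Insig2 co-bound peak: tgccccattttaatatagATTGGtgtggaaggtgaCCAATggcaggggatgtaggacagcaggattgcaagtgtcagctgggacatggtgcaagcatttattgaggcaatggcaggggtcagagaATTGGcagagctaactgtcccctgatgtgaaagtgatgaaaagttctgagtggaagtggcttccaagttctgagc
Insig1 co-bound peak: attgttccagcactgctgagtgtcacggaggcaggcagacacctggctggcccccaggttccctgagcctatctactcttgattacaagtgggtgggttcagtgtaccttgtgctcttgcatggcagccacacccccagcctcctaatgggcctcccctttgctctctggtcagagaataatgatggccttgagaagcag
Srebf2 co-bound peak: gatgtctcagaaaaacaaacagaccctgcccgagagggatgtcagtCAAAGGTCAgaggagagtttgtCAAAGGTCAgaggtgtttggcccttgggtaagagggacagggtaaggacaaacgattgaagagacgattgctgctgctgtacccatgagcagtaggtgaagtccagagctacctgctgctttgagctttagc
Sqle co-bound peak: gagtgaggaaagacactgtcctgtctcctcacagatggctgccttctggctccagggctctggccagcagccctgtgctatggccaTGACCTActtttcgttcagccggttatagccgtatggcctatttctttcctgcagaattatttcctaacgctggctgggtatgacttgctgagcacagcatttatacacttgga
Lss HNF4α peak: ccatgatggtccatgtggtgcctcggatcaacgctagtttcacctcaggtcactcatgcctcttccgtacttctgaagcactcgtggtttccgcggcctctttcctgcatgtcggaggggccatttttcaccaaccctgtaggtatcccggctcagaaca
Hmgcs1 upstream region: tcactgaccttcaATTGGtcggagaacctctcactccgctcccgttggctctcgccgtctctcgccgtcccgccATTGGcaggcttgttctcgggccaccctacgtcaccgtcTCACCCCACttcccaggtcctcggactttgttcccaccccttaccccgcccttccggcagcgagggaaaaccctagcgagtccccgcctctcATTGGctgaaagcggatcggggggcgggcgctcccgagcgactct

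Most HNF4α peaks and nearly all shared HDAC3 and PROX1 peaks lay at the feedback genes, although all 6 placed genes had an HNF4α peak. *Insig1*, *Insig2* and *Srebf2* together held 18 co-bound peaks and *Sqle*, *Lss* and *Idi1* held 1. Per 100 kb of window this came to 7.21 co-bound peaks at the feedback genes, 0.489 at the enzyme genes and 1.25 over all protein-coding genes. An HNF4α peak was present in 6 of 6 windows, where 49.8% of all protein-coding genes have one, with 15 peaks at the feedback genes and 3 at the enzyme genes. Per 100 kb, HNF4α peaks numbered 6.01 at the feedback genes, 1.47 at the enzyme genes and 1.59 over all protein-coding genes. A co-bound peak was present in 4 of 6 windows, where the share of all genes is 38.4%, and a co-bound peak with HNF4α in 3 of 6, where it is 31.1%. A PROX1-only peak lay in 4 of 6 windows, against 25.2% of all genes, and an HDAC3-only peak in 1 of 6, against 7.41%. The division into feedback and enzyme genes was not among the planned results. Within 10 kb of the TSS, *Insig1* and *Srebf2* had no co-bound peak, as was so for the enzyme genes. With 6 genes these counts describe the genes and are not a test of the pathway.

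**Figure D1:**
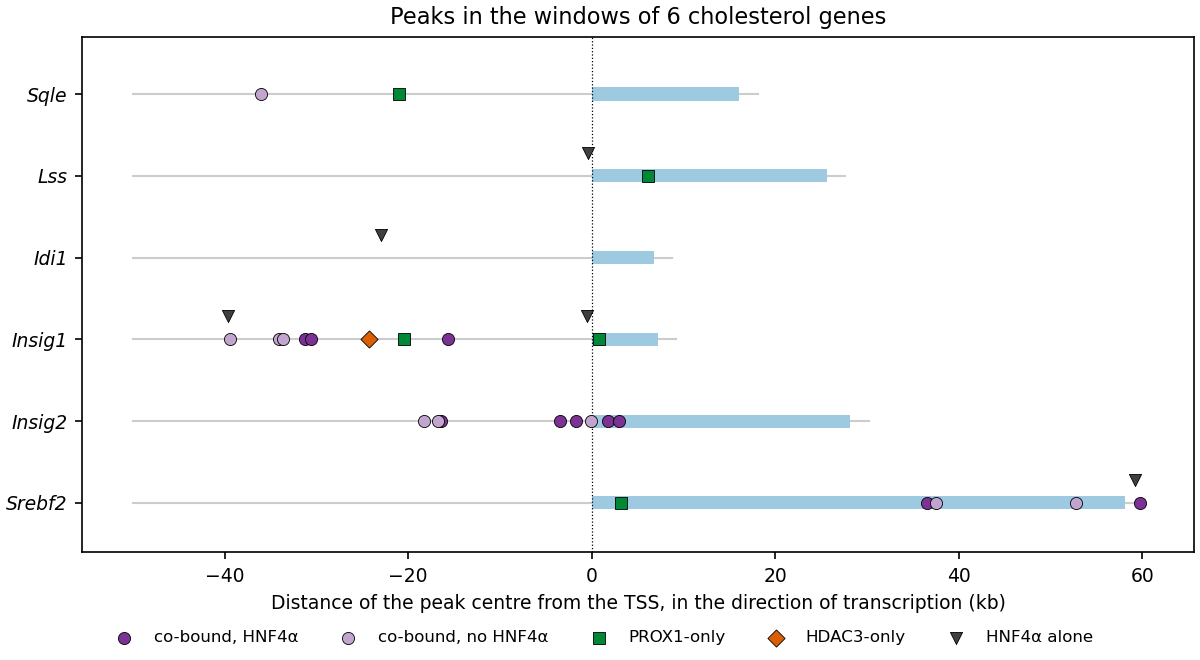
Peaks in the windows of the 6 placed genes, with the distance of each peak centre from the TSS in kb along the direction of transcription. Grey lines are windows and blue bars genes; the 5 HNF4α peaks that touch no other peak are raised above their line, and the 8 co-bound peaks of *Insig2* lie between -18.3 and 2.95 kb while those of *Insig1* all lie upstream, from -15.7 to -39.4 kb.

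*Insig2*, on the minus strand at chr1:123200930-123229166, had the most co-bound peaks, 8 in a window of 80.2 kb. Only 2.87% of protein-coding genes had as many. HNF4α covered 5 of the 8, and no PROX1-only or HDAC3-only peak and no HNF4α peak on its own lay in the window. The peak centred at -106 bp was the only co-bound peak of any placed gene within 1 kb of its TSS, which 5.06% of protein-coding genes have. No HNF4α peak touched it, and the nearest lay 1354 bp away. Its sequence, given above, lies wholly within the 250 bp upstream of the most upstream of the 3 RefSeq starts of *Insig2* and holds 3 CCAAT boxes, at positions 123229191, 123229208 and 123229298. The other 2 RefSeq starts have none in the 250 bp before them.

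HNF4α flanked this promoter on both sides. Upstream, the peaks at -1.66 kb and -3.43 kb carried HNF4α with scores of 34.4 and 75.9. In introns of the gene, the peaks at 1.77 kb and 2.95 kb carried it with scores of 61.7 and 60.8, the latter 1611 bp before another annotated start of the same gene. The score is the authors' HOMER score, whose scale is not stated, and it ran from 20.3 to 160.2 over the whole list with a median of 41.9. Of these 4 peaks, the one nearest to the promoter upstream was the only one below that median.

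A second group of 3 *Insig2* peaks lay further upstream, at -16.4, -16.7 and -18.3 kb. The peak at -16.4 kb had the highest HNF4α score of the locus, 82.5, which is above 89.8% of the list. The neighbouring peak at -16.7 kb, chr1:123245773-123245972, had no HNF4α peak on it, the nearest being 111 bp away, although it held the 1 exact CAAAGTCCA match among the 19 co-bound peaks, at positions 123245911 to 123245919. The peak at -18.3 kb had neither.

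*Insig1*, at chr5:28397952-28405201, had 6 co-bound peaks, a number that 5.79% of protein-coding genes reached, and 10.1 per 100 kb of window, against 9.98 for *Insig2*. Unlike those of *Insig2*, none was near the TSS. All 6 were intergenic and lay upstream, at -15.7, -30.6, -31.2, -33.6, -34.1 and -39.4 kb. HNF4α covered 3 of them, with scores of 107.4 at -15.7 kb, 55.6 at -30.6 kb and 66.9 at -31.2 kb. The score at -15.7 kb was the highest of all 6 windows and above 97.7% of the list, yet the HNF4α peak was offset and covered 53.5% of the co-bound peak. Its 200 bp held none of the letters searched. At -39.4 kb the co-bound peak had no HNF4α on it but an HNF4α peak with a score of 92.4 lay 64 bp away.

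The promoter of *Insig1* had an HNF4α peak and no co-bound peak, whereas that of *Insig2* had a co-bound peak and no HNF4α peak. The *Insig1* HNF4α peak, with a score of 31.1, was centred at -467 bp, touched no other peak and lay 1124 bp from the nearest one. That nearest peak was PROX1-only, at 837 bp in an intron of the gene, and a further PROX1-only peak lay at -20.5 kb, both without HNF4α. *Insig1* also had the one HDAC3-only peak of the 6 windows, at -24.3 kb, and HNF4α covered 80.0% of it with a score of 39.1. Of all HDAC3-only peaks, 14.0% had HNF4α.

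*Srebf2*, at chr15:81977696-82035806, had 4 co-bound peaks, which 11.9% of genes reached, in the longest window, 110.1 kb. None lay near its promoter or upstream of it. Of the 4, 3 were in introns, at 36.6, 37.5 and 52.7 kb, and 1 lay past the gene end at 59.7 kb. The peak at 36.6 kb had the highest HNF4α score of the locus, 97.5, above 95.6% of the list. Its sequence holds CAAAGGTCA at positions 82014220 and 82014242 on the same strand. Less than 1 kb on, the peak at 37.5 kb was covered to 47.5% by an HNF4α peak with a score of 72.6 and so just missed the limit of 50% that the *Insig1* peak at -15.7 kb just met.

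The other peaks of *Srebf2* had low HNF4α scores or no HNF4α. The peak at 52.7 kb had no HNF4α and was the one co-bound peak of the 19 outside the first block of the lists, in which 78.3% of all co-bound peaks stand. It lay downstream of the microRNA gene *Mir33*, which sits inside *Srebf2* 50856 bp from the TSS. This peak and that at 59.7 kb, which had HNF4α with a score of 38.6, were nearer to the TSS of *Tnfrsf13c* than to that of *Srebf2*. Nearest to the *Srebf2* promoter was a PROX1-only peak in an intron at 3.15 kb, without HNF4α, and an HNF4α peak on its own at 59.1 kb had the lowest score of the 18, 22.6.

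**Figure D2:**
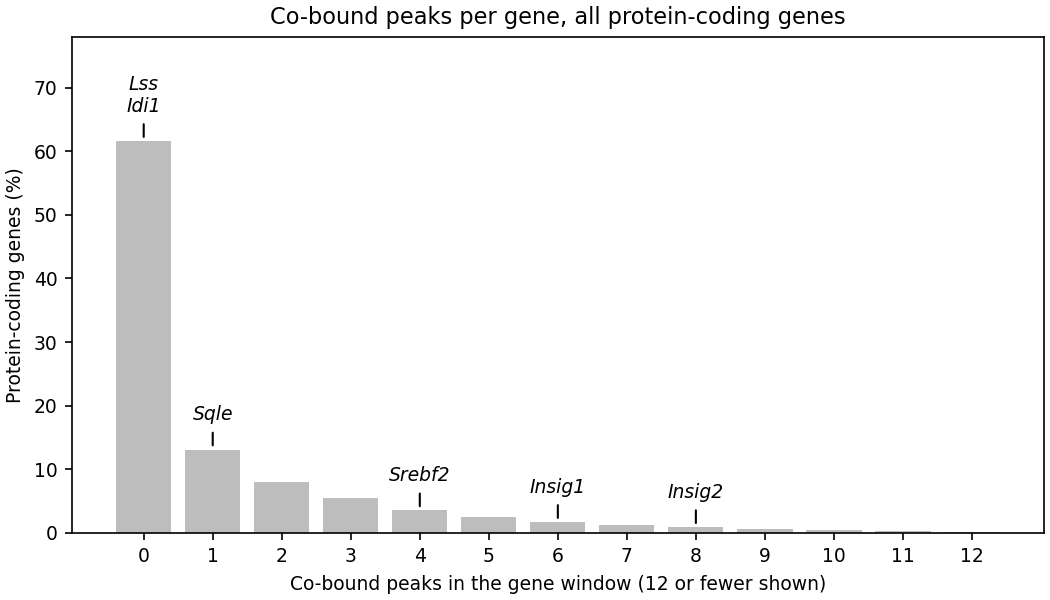
Share of all 22350 protein-coding genes (y axis, %) by the number of co-bound peaks in the gene's window (x axis), with the 6 placed genes marked at their own number. *Lss* and *Idi1* stand at 0, as the median gene does, *Sqle* at 1, *Srebf2* at 4, *Insig1* at 6 and *Insig2* at 8; windows differ in length, from 58.8 kb for *Idi1* to 110.1 kb for *Srebf2*.

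The enzyme genes had fewer peaks than the feedback genes, and none of the 3 had all 3 factors on 1 co-bound peak. Of all protein-coding genes, 31.1% have such a peak in the window. HNF4α peaks at the enzyme genes, 1.47 per 100 kb, were about as dense as over all protein-coding genes, 1.59. *Sqle*, at chr15:59146632-59162747, had 1 co-bound peak, at -36.1 kb, a number that 38.4% of genes reached. The nearest HNF4α peak to it was 14033 bp away, and its sequence holds the ROR and REV-ERB letters in reverse, TGACCTA, at position 59110557. A PROX1-only peak at -21.0 kb was covered to 74.5% by HNF4α with a score of 31.1. It was the only one of the 5 PROX1-only peaks of the 6 windows with HNF4α, where 36.7% of all PROX1-only peaks have it.

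*Lss*, at chr10:75994333-76019883, had no co-bound peak. Its promoter carried an HNF4α peak on its own, centred at -386 bp with a score of 30.2, and the nearest HDAC3 or PROX1 peak, PROX1-only in an intron at 6.13 kb, lay 6340 bp away. *Lss* and *Insig1* were thus the 2 of 6 genes with an HNF4α peak that touched no other peak within 1 kb of the TSS, where 5.53% of all genes have one. Both promoter scores, 30.2 and 31.1, were below the median of the list.

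*Idi1*, at chr13:8884852-8891641, had no HDAC3 or PROX1 peak of any class. The 1 HNF4α peak of its window, with a score of 50.4, lay at -22.9 kb in an intron of *Wdr37*, whose own TSS was nearer, at 8050 bp. The nearest HDAC3 or PROX1 peak to it was 133768 bp away.

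Over the 6 windows, 10 of the 19 co-bound peaks had HNF4α, 52.6% with a 95% Wilson interval of 31.7 to 72.7%, which covers counting error only. The share over all co-bound peaks was 61.3% and lies within that interval. It treats peaks of the same gene as independent, although 18 of the 19 lay at *Insig1*, *Insig2* and *Srebf2*, and is not a test. Of the 9 without HNF4α, 3 had an HNF4α peak within 200 bp, among them the partly covered *Srebf2* peak. How often this holds over all co-bound peaks without HNF4α was not counted. By position, 13 of the 19 lay upstream of the TSS, 5 in introns of their gene, none in an exon, and 14 more than 10 kb from the TSS. Each of the 6 windows reaches 50 kb upstream, in a total of 454.0 kb, so this split depends on the shape of the windows. The same split over all gene windows was not counted.

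The HNF4α scores of the 18 peaks ranged from 22.6 to 107.4 with a median of 58.2, and 11 of the 18 exceeded the median of the list, 41.9. Those on the 10 co-bound peaks with HNF4α ranged from 34.4 to 107.4 with a median of 64.3, beside 52.3 over all such peaks. The 5 that touched no other peak had a median of 31.1, beside 32.5 over the 7608 such peaks of the list. *Insig1* and *Srebf2* each held both a score among the highest and one among the lowest of the set: 107.4 and 31.1 at *Insig1*, and 97.5 and 22.6 at *Srebf2*.

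**Figure D3:**
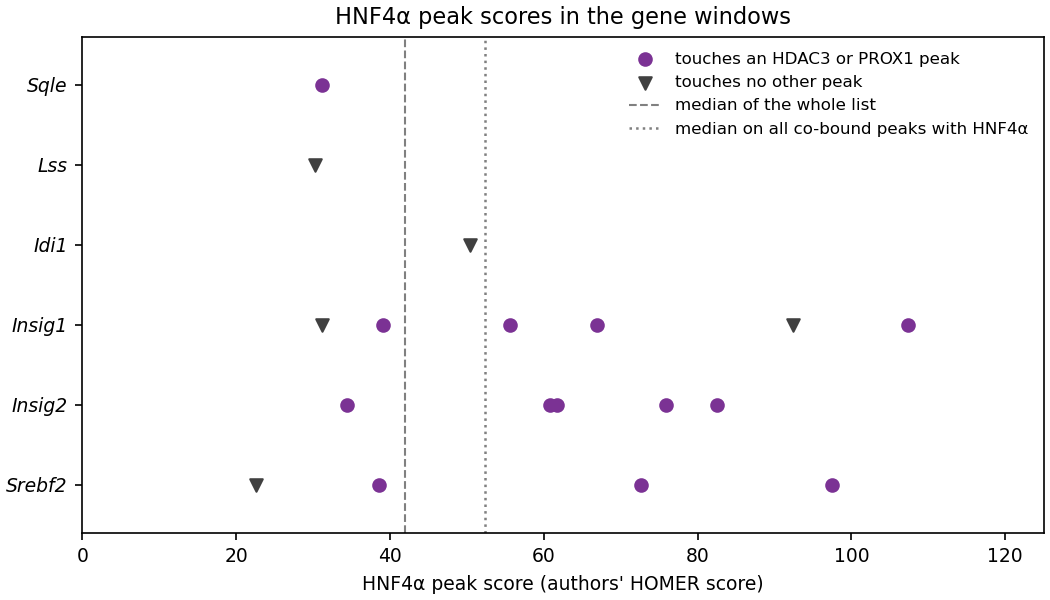
Score of each of the 18 HNF4α peaks (x axis, the authors' HOMER score) by gene, with circles for peaks that touch an HDAC3 or PROX1 peak and triangles for the 5 that do not. The dashed line is the median of the whole list, 41.9, and the dotted line the median on all co-bound peaks with HNF4α, 52.3; the single peaks of *Sqle* and *Lss* fall below both lines and that of *Idi1* between them.

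Matches to the letters searched among the 19 co-bound peaks are given beside their share over all 20039 co-bound peaks. CAAAGTCCA was in 1 of the 19 co-bound peaks and in 2.84% of all co-bound peaks. CAAAGGTCA, which was added after the *Srebf2* sequence had been seen, was in 2 of 19, at *Srebf2* and at the *Insig1* peak at -31.2 kb, and in 3.08% of all. TTGCNNAA was in 5 of 19, or 26.3%, beside 26.1%, and CCAAT in 7 of 19, or 36.8%, beside 29.6%. TAGGTCA was in 1, beside 5.04%, and the E-box CACGTG in 1, the *Insig2* peak at 1.77 kb, beside 4.01%. The sterol element TCACNCCAC was in 0 of the 19 co-bound peaks and in 0.778% of all. With 1 mismatch allowed, these were 3 of 19, or 15.8%, beside 14.9%. An exact match lay in the 250 bp upstream of the *Hmgcs1* start, which also hold 3 CCAAT boxes. That span before the RefSeq starts of *Idi1*, *Insig1*, *Insig2*, *Lss* and *Srebf2* held no exact match. With 1 mismatch allowed, it held a match at *Insig1*, *Srebf2* and 1 of the *Insig2* starts, and none at *Idi1* or *Lss*. The share over all RefSeq starts was not counted at that setting. No RefSeq entry was matched for *Sqle*. Over all RefSeq starts, 1.05% have an exact match to the sterol element and 33.8% a CCAAT box in that span. A match is a string of letters and was not tested for binding.

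A wider list of 23 further genes of sterol synthesis, SREBP control and cholesterol uptake was counted in the same way. Of these, 14 (60.9%) had a co-bound peak, beside 38.4% of all protein-coding genes, and 9 (39.1%) had one with HNF4α, beside 31.1%. An HNF4α peak lay in the windows of 20 of the 23, beside 49.8% of all protein-coding genes. The median was 2 co-bound peaks per gene, beside 2.5 for the 6 placed genes and 0 over all protein-coding genes. Of the 59 co-bound peaks of the 23 genes, 29 had HNF4α, 49.2% with an interval of 36.8 to 61.6%, beside 61.3% over all co-bound peaks. The interval takes peaks of the same gene as independent. Ranked by co-bound peaks with HNF4α, *Scarb1*, the HDL receptor, came first with 12, out of 18 co-bound peaks. *Sc5d*, a late sterol desaturase, had 3 of 5 and *Scap*, the SREBP escort, 3 of 3. Without *Scarb1*, the other 22 genes had 41 co-bound peaks, a median of 1.5 per gene. HNF4α was on 17 of these 41, or 41.5%, with an interval of 27.8 to 56.6%. No co-bound peak was found at 9 of the 23 genes, where 61.6% of all protein-coding genes have none. These were *Mvk*, *Cyp51*, *Tm7sf2*, *Nsdhl*, *Hsd17b7* and *Ebp* of the synthesis pathway and the SREBP proteases *Mbtps1* and *Mbtps2*. The last was *Mylip*, which encodes a ubiquitin ligase for lipoprotein receptors.

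The wider list did not show more co-bound peaks at control genes than at enzyme genes once *Scarb1* was set aside. Its 15 enzyme genes had 2.85 co-bound peaks per 100 kb, with HNF4α on 10 of 30, and its 8 genes of control and uptake had 3.98, with HNF4α on 19 of 29. *Scarb1* alone supplied 18 of these 29, and the other 7 genes of control and uptake had 1.79 per 100 kb, with HNF4α on 7 of 11. The medians were 2 co-bound peaks per enzyme gene and 1.5 per gene of control and uptake. Leaving out *Scarb1* was chosen after its count had been seen. *Sqle*, *Lss* and *Idi1*, at 0.489, were sparser in co-bound peaks than the other 15 enzyme genes as a group, a difference that was not tested.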

How the data were processed

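Per the labels and the study's methods, the authors mapped reads with Bowtie 0.12.7 (genome build mm9), dropped duplicates, merged replicates and used HOMER to call peaks over IgG. They deposited 3 peak lists. Those of HDAC3 and PROX1 give positions, and that of HNF4α also the authors' HOMER score. The lists hold no read counts and no value per replicate. Each HDAC3 and PROX1 list holds 3 empty lines, which were left out.

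Genes, TSSs and introns came from GENCODE on NCBIM37, which is mm9, and promoter letters from RefSeq (GRCm38.p6), which had 6 of the 7 genes. A gene's TSS is the 5′ end of its gene model. Peaks were placed by their centres, and motifs counted on both strands of 200 bp. Wilson intervals of 95% are given only for the shares with HNF4α of the 19, 59 and 41 co-bound peaks. All 7 genes were named, and of the wider list the 3 genes with most co-bound peaks with HNF4α and those with none co-bound. The genes, lists and alternatives were chosen with earlier results of these data known. The code was tested on simulated data. Python 3.11.15, numpy 2.4.6, pandas 2.3.3, scipy 1.17.1 and matplotlib 3.10.9 were used. Other ChIP-seq and RNA libraries of the series were not analysed here.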

Additional observations from a re-analysis of the deposited data

How the results depend on the processing

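Limits. With pooled lists of unknown depth, a missing peak means only that none was called, and no count has an error between livers. No paired analysis was possible because the result comes from no test. The window matters most. With peaks within 10 kb of the TSS only, 5 co-bound peaks remained, 4 with HNF4α (80.0%), all at 1 gene of 6, *Insig2*, where 18.5% of all protein-coding genes have one. From 100 kb upstream there were 22, 13 with HNF4α, at 4 genes, *Sqle* being added. Covering 75% of the peak left 7 with HNF4α and none at *Srebf2*. Peaks nearest to their own gene (17), merged within 1 kb (14), HNF4α covering 25% (11 with HNF4α) or scoring above the median (8) gave 3 genes each. Matches to the HNF4 letters rose from 1 co-bound peak to 4 with 1 mismatch allowed (20.9% of all co-bound peaks) and were 2 with CAAAGGTCA, chosen after the data were seen.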
